A study of Cricetulus griseus with 6 samples.

Results

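T-cadherin (*Cdh13*), 4 other cadherin genes (*Cdh1*, *Cdh2*, *Cdh3* and *Cdh11*), the catenin genes *Ctnna1*, *Ctnnb1* and *Ctnnd1*, and the adiponectin receptor genes *Adipor1* and *Adipor2* were examined in CHO-T cells. The 10 genes were chosen by their symbols, with earlier results of these data known, and each was found among the 27873 entries of the files. CHO-T is a line of Chinese hamster ovary (CHO) cells into which full-length mouse T-cadherin cDNA was brought by a pMXs-puro retrovirus with puromycin selection, and both groups carry this transgene. The cells were transfected for 48 h with negative control siRNA (n = 3 libraries) or with *Xbp1* siRNA (n = 3 libraries), and their mRNA was sequenced with strand kept. The study's general statement on statistics speaks of independent experiments, but the labels do not say that the libraries of a group came from separate cultures, so the p-values measure the spread between these libraries, part of which may be technical. Whether the CHO-T line is 1 clone is not given. XBP1 is a transcription factor of the unfolded protein response, and the loss of XBP1 is known to raise the activity of the endoplasmic reticulum sensor IRE1α. The study silenced *Xbp1* as a genetic means of activating IRE1α.

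Classical cadherins are transmembrane adhesion molecules that bind cadherins on the neighbouring cell, while their cytoplasmic tails bind β-catenin and p120-catenin, and α-catenin links the complex to actin. T-cadherin has no such tail. It is held in the membrane by a glycosylphosphatidylinositol anchor, binds the multimeric forms of the adipocyte hormone adiponectin, and is known in endothelium and muscle as the molecule on which adiponectin accumulates. AdipoR1 and AdipoR2 are receptors of another kind, with membrane-spanning helices of the PAQR family, and act through AMP-activated kinase, PPARα and ceramide hydrolysis. β-Catenin also acts in the nucleus as the coactivator of Wnt target genes.

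IRE1α is an endoribonuclease that starts the splicing of *Xbp1* mRNA at a pair of stem-loops and can cleave other mRNAs at similar sites. The study drew a candidate IRE1α recognition site in T-cadherin mRNA beside the known sites of *Xbp1*. Both sequences are shown because *Cdh13* is the member with the largest decrease and because *Xbp1* mRNA is the known substrate. The organism of the sequences is not given with them. Capitals mark the matches to CNGCAGN, searched on the strand shown.
Cdh13: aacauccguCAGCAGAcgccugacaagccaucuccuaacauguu
Xbp1: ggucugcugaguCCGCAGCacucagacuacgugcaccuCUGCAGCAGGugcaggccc

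The *Cdh13* sequence of 44 bases held 1 match, CAGCAGA, at bases 10 to 16 counted from its 5′ end. None of the bases directly beside this match were complementary across it. A stem of 5 pairs, bases 8 to 12 with bases 20 to 24, encloses a loop of 7 bases, and the match runs from the 5′ arm of this stem into its loop. The 5 bases at each end of the sequence were also complementary, with 34 bases between them. The *Xbp1* sequence of 57 bases held 3 matches. CCGCAGC at bases 13 to 19 was flanked by 6 complementary base pairs, and CUGCAGC at bases 39 to 45 was flanked by 7. The third match, CAGCAGG at bases 42 to 48, overlaps the second and had 0 flanking pairs. With a minimum of 5 pairs and of 3 bases in the loop, 2 perfect stems could be drawn in the *Cdh13* sequence and 6 in that of *Xbp1*, some of which exclude each other, and no folding was computed. Transcript sequences were not used here, so the share of other mRNAs that hold the motif was not computed, and a match is a description and not a cleavage site. The study reports that neither quantitative PCR across the *Cdh13* site nor a mutant of the site bore out its role in decay. It also reports that its RNA-Seq showed little difference, after XBP1 depletion, between genes with and without the site.

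Expression is given in FPKM, which divides the fragments of a gene by its length and by the depth of the library, so levels of different genes are compared per length. Groups were compared with limma on log2(FPKM + 0.1), a scale that compresses changes at low levels, over 14361 genes whose mean FPKM reached 0.1, with Benjamini-Hochberg adjustment over all of them. A gene is said to have risen or fallen at an adjusted p under 0.05, and was called higher or lower if its log2 fold change was also at least 1 in size. In the text below the FPKM of a group are given for replicates 1, 2 and 3 in that order. As a check of the labels, *Xbp1* itself had 26.0, 26.2 and 28.4 FPKM with control siRNA and 2.18, 2.11 and 1.39 FPKM with *Xbp1* siRNA (log2 fold change −3.78, adjusted p = 5.61e-06). Correlations of log2 values across genes lay between 0.966 and 0.972 within groups and between 0.955 and 0.960 across groups, and the median log2 fold change of all genes tested was 0.01. The depth of the libraries, recovered from the steps of low FPKM values, was 94.0% to 116% of that of control replicate 1.

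Of the 10 members, 7 passed the filter on low values, 2 (*Cdh2* and *Cdh3*) had values under it and *Cdh11* was listed at 0 in all 6 libraries. Under *Xbp1* siRNA, 5 of the 7 fell (*Cdh13*, *Ctnna1*, *Ctnnd1*, *Adipor1* and *Adipor2*), 1 rose (*Cdh1*) and *Ctnnb1* did not pass the test. Over all genes tested, 20.2% fell and 20.2% rose. With the limit on size, 1 member was called lower (*Cdh13*) and 1 higher (*Cdh1*), against 2.50% and 2.69% of all genes. The groups did not overlap for 6 of the 7 members, lower in 5 and higher in 1, against 25.8% of all genes lower without overlap and 26.1% higher. The median log2 fold change of the 7 members tested was −0.30.

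*Cdh13*, which encodes T-cadherin, had 85.4, 84.6 and 85.5 FPKM in the control libraries and 32.7, 32.6 and 33.5 FPKM after *Xbp1* silencing. All 3 libraries with *Xbp1* siRNA lay far below all 3 controls, and the spread within each group was under 1 FPKM. The means were 85.2 ± 0.478 FPKM (SD, n = 3) and 32.9 ± 0.476 FPKM (SD, n = 3), which leaves 38.6% of the control level, a 2.59-fold decrease. By quantitative PCR normalized to a reference gene, the study reports a smaller decrease of T-cadherin mRNA in CHO-T cells after *Xbp1* silencing. On the log2 scale the fold change was −1.37 (standard error 0.034, 95% confidence interval −1.45 to −1.29, adjusted p = 7.96e-07). The study describes CHO cells as lacking detectable T-cadherin of their own apart from the introduced cDNA. In the files, reads of the mouse cDNA and of the hamster gene would share 1 entry, and these values alone do not separate them. How reads of the mouse sequence were aligned is not given in the sources used here, so the absolute FPKM of *Cdh13* is uncertain. In these bulk libraries, fewer cells that express a gene and less of its RNA per cell cannot be told apart.

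**Figure D1:**
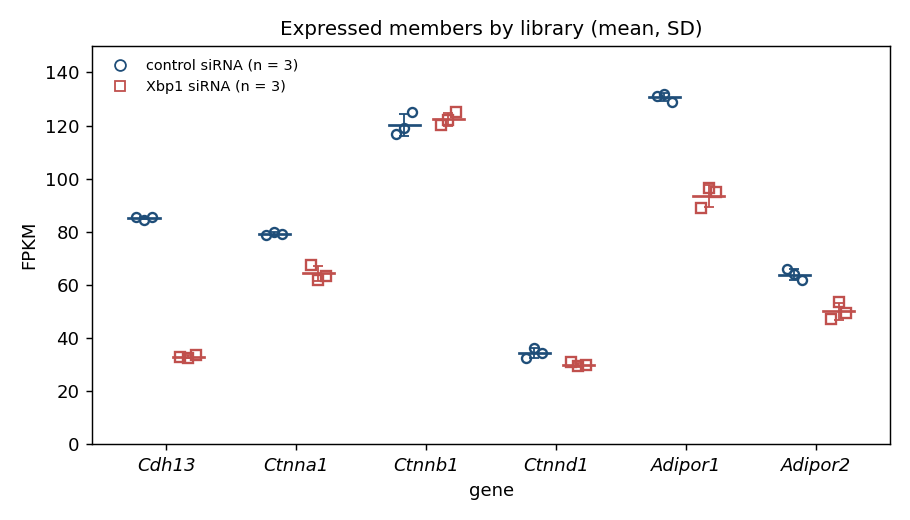
FPKM (linear axis from 0) of the 6 members expressed above 29 FPKM, with 1 circle for each control siRNA library and 1 square for each Xbp1 siRNA library (n = 3 each), horizontal lines for the mean and bars for the SD. *Cdh13* drops from 85.2 to 32.9 FPKM with little spread, *Adipor1*, *Adipor2*, *Ctnna1* and *Ctnnd1* lie lower by smaller amounts, and the groups overlap for *Ctnnb1*.

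The other cadherins among the members were at or near the limit of detection. *Cdh1*, which encodes the epithelial E-cadherin, had 0.223, 0.0296 and 0.142 FPKM with control siRNA and 0.353, 0.397 and 0.551 FPKM with *Xbp1* siRNA. The 3 libraries with *Xbp1* siRNA were each above the highest control. By the steps of its values these were 8, 1 and 5 reads against 13, 14 and 23 reads, in all 14 and 50, a ratio per depth of 3.29 with a 95% interval of 1.79 to 6.45 that covers counting error only. Its log2 fold change was 1.29 (standard error 0.43, 95% confidence interval 0.27 to 2.30, adjusted p = 0.0489), which just met both limits. The call was lost when any 1 of 5 libraries was left out: without control replicate 2 the value was 0.92 (adjusted p = 0.107), and without control replicate 3 or *Xbp1* siRNA replicate 1, 2 or 3 it lay between 1.13 and 1.40 with adjusted p of 0.0824 to 0.145. It held without control replicate 1 (1.57, adjusted p = 0.035).

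Among 8 epithelial markers looked for, 5 were matched. Their summed level was 1.80 to 2.03 FPKM in the controls and 4.30 to 5.63 FPKM with *Xbp1* siRNA. Nearly all of this sum was *Epcam*, an epithelial adhesion molecule, with 1.82 ± 0.105 FPKM and 4.72 ± 0.644 FPKM (mean ± SD of 3 libraries) and a log2 fold change of 1.32 (adjusted p = 2.56e-04). *Ocln*, the other epithelial marker tested, had 0.0984 and 0.123 FPKM on average and did not pass the test (log2 fold change 0.47, adjusted p = 0.609). *Krt18*, *Krt19* and *Cldn7* were at 0 in all libraries. The part of these markers in the result for *Cdh1* was not tested.

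*Cdh2*, which encodes the mesenchymal and neuronal N-cadherin, had 0.162, 0 and 0.0276 FPKM in the controls and 0.105, 0.0275 and 0.0931 FPKM with *Xbp1* siRNA. These were 6, 0 and 1 reads against 4, 1 and 4 reads, and the groups overlapped. The ratio per depth was 1.19 with an interval of 0.393 to 3.74, so a difference was not detectable at this depth. *Cdh3*, which encodes placental P-cadherin and stands next to *Cdh1* with 0 genes between them in the RefSeq gene table of the Chinese hamster, had 1 read in each of control replicates 1 and 2 and none in the other libraries. *Cdh11*, which encodes a cadherin of osteoblasts and mesenchyme, was listed at 0 throughout. A count of 0 allows an expected count of up to about 3 reads in a library at 95% confidence. Of 36 ubiquitously expressed genes, 0 were at 0 in any library, which does not bear on a 0 in a weakly expressed gene. The 4 genes summed to between 0.0593 and 0.413 FPKM in the controls and between 0.425 and 0.644 FPKM with *Xbp1* siRNA.

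*Cdh13* was next set beside the other listed genes with a *Cdh* symbol, most of them type I or II cadherins. Of 23 looked for, 20 were matched, 11 were at 0 in all libraries and 5 reached a mean FPKM of 0.1. Only *Cdh13* and *Cdh24* had a mean of at least 1. *Cdh13* made up 97.1%, 97.3% and 97.1% of the summed cadherin FPKM in the controls and 89.0%, 89.4% and 87.0% with *Xbp1* siRNA. These shares include the introduced mouse cDNA and rest on the uncertain absolute FPKM of *Cdh13* named above. The sum of the others was 2.55, 2.36 and 2.51 FPKM against 4.04, 3.88 and 5.01 FPKM, higher in each library with *Xbp1* siRNA than in any control.

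Outside the members, 3 of the 15 other *Cdh* genes matched passed the filter, and 1 rose, with a median log2 fold change of 0.79. *Cdh24*, a type II cadherin, had 1.07 ± 0.00870 FPKM and 1.95 ± 0.373 FPKM (mean ± SD of 3 libraries), a change of 0.79 on the log2 scale (standard error 0.18, adjusted p = 0.0109). The other 2 did not pass the test. *Cdh9*, another type II cadherin, had 0.396 ± 0.159 FPKM and 0.791 ± 0.0599 FPKM (mean ± SD of 3 libraries) without overlap, with a log2 fold change of 0.90 (adjusted p = 0.0521) and, without control replicate 3, of 1.11 (adjusted p = 0.0352). Its adjusted p was also under 0.05 without the eBayes trend (0.0458) and with a pseudocount of 1 (0.035), where its log2 fold change was 0.37. In the other settings that tested *Cdh9*, the adjusted p was 0.0525 to 0.135. For *Cdh17*, the liver-intestine cadherin, the log2 fold change was 0.36 (adjusted p = 0.248).

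**Figure D2:**
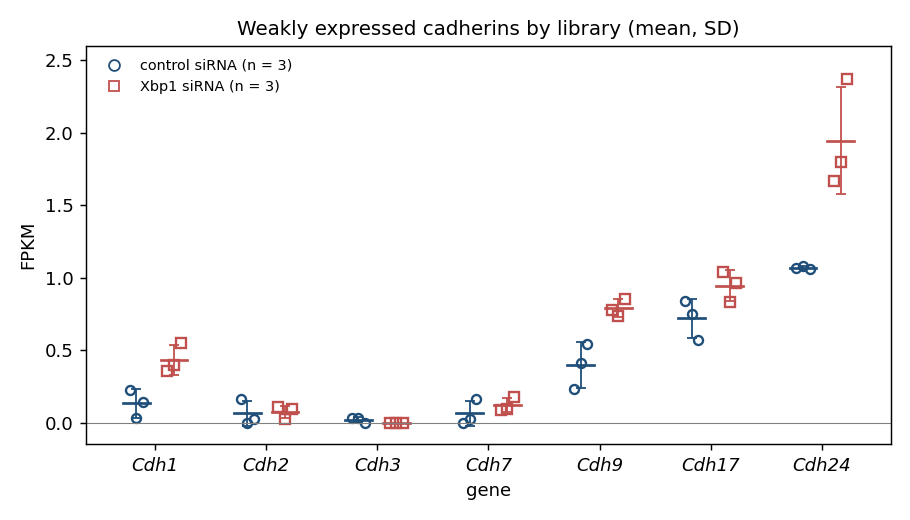
FPKM (linear axis) of 7 weakly expressed cadherins by library, with circles for control siRNA, squares for Xbp1 siRNA (n = 3 each), lines for the mean and bars for the SD. *Cdh24* lies between 1.67 and 2.37 FPKM with Xbp1 siRNA against 1.06 to 1.08 FPKM in the controls, *Cdh1* stays below 0.6 FPKM in all libraries, and *Cdh2* and *Cdh3* lie near 0.

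The catenins were abundant in spite of the low level of the classical cadherins. *Ctnnb1*, which encodes β-catenin, had 117, 119 and 125 FPKM with control siRNA and 120.1, 122 and 125 FPKM with *Xbp1* siRNA. The groups overlapped, with means of 120.2 ± 3.89 FPKM (SD, n = 3) and 122 ± 2.30 FPKM (SD, n = 3). The log2 fold change was 0.02 with a 95% confidence interval of −0.06 to 0.11 (adjusted p = 0.631). The ratio of *Cdh13* to *Ctnnb1* FPKM within a library was 0.727, 0.713 and 0.686 in the controls and 0.272, 0.267 and 0.268 with *Xbp1* siRNA.

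*Ctnna1*, which encodes the actin-linking αE-catenin, had 78.7, 80.1 and 79.2 FPKM in the controls and 67.5, 61.9 and 63.5 FPKM with *Xbp1* siRNA. All 3 silenced libraries lay below the controls, at 81.0% of the control mean. The fold change on the log2 scale was −0.30 (standard error 0.041, adjusted p = 9.17e-04). *Ctnnd1*, which encodes p120-catenin, the stabiliser of cadherins at the membrane, had 32.4, 36.1 and 34.3 FPKM against 30.8, 29.3 and 29.9 FPKM. The groups did not overlap, and the gap between the lowest control and the highest silenced library was smaller than the range of the controls. Its log2 fold change of −0.19 (standard error 0.052, adjusted p = 0.023) did not pass the test without control replicate 2 (−0.15, adjusted p = 0.0743), control replicate 3 (−0.19, 0.0597), *Xbp1* siRNA replicate 2 (−0.17, 0.0726) or *Xbp1* siRNA replicate 3 (−0.19, 0.0676). The 3 catenins summed to 229, 235 and 238 FPKM in the controls and to 218, 213 and 218 FPKM with *Xbp1* siRNA.

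Both adiponectin receptors fell, each by less than the 2-fold limit of a call. *Adipor1*, which encodes the receptor tied mainly to AMP-activated kinase, had 131, 132 and 129 FPKM with control siRNA and 88.9, 96.6 and 95.1 FPKM with *Xbp1* siRNA. No silenced library reached the controls, and 71.5% of the control mean remained. Its change on the log2 scale was −0.48 (standard error 0.04, adjusted p = 8.39e-05). *Adipor2*, which encodes the receptor tied mainly to PPARα, had 65.9, 64.0 and 61.8 FPKM against 47.0, 53.5 and 49.5 FPKM. These groups did not overlap either, and 78.3% of the control mean remained. Its change on the log2 scale was −0.35 (standard error 0.055, adjusted p = 0.00175).

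The receptors were also compared with each other within each library. The ratio of *Adipor1* to *Adipor2* FPKM was 1.99, 2.06 and 2.09 in the controls and 1.89, 1.80 and 1.92 with *Xbp1* siRNA, lower in each silenced library than in any control. The log2 ratio was 1.03 ± 0.034 (SD, n = 3) and 0.90 ± 0.047 (SD, n = 3), a difference of −0.13. The exact permutation test (two-sided, 3 against 3) gave p = 0.10, the smallest that this design allows, so it cannot pass 0.05. *Adipoq*, which encodes the ligand adiponectin, had 1 read in *Xbp1* siRNA replicate 1 and none in the other 5 libraries.

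**Figure D3:**
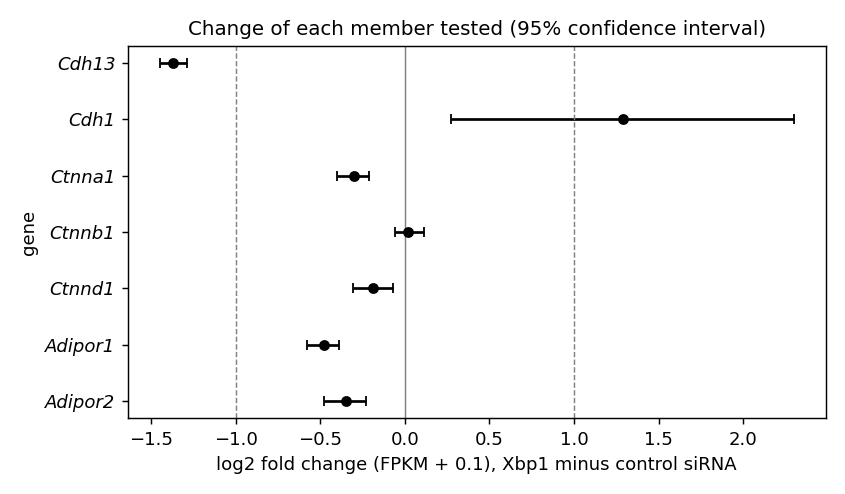
Log2 fold change of FPKM + 0.1 (Xbp1 siRNA minus control siRNA, n = 3 libraries each) of the 7 members tested, with points for the limma estimate and bars for its 95% confidence interval, a solid line at 0 and dashed lines at the limits of a call. *Cdh13* (−1.37) lies beyond the limit with a narrow interval, *Cdh1* (1.29) has by far the widest interval, and the interval of *Ctnnb1* (0.02) spans 0.

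The order of the 6 abundant members by FPKM was the same in all 3 libraries of a group and differed between the groups. In the controls it was *Adipor1*, *Ctnnb1*, *Cdh13*, *Ctnna1*, *Adipor2* and *Ctnnd1*. With *Xbp1* siRNA it was *Ctnnb1*, *Adipor1*, *Ctnna1*, *Adipor2*, *Cdh13* and *Ctnnd1*. *Cdh13* moved from place 3 to place 5, and *Adipor1* gave its first place to *Ctnnb1*. The places of *Cdh13* rest on its absolute FPKM, which is uncertain as said above. Neighbours in the order did not overlap within either group. By the gap in absolute FPKM the closest were *Cdh13* and *Ctnnd1* with *Xbp1* siRNA, where the lowest *Cdh13* value was 32.6 FPKM and the highest *Ctnnd1* value 30.8 FPKM.

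The genes whose log2 values were most like those of *Cdh13* over the 6 libraries, among 9409 genes whose mean FPKM reached 1, were *Smap1*, *Dag1*, *Hmox1*, *Hdgf* and *Ptgfrn*, with Pearson r between 0.9997 and 0.9999. With 2 groups of 3 libraries such an r rests on the difference between the groups and is given as a description. *Smap1*, which encodes an Arf GTPase-activating protein, had 41.2, 41.1 and 41.2 FPKM against 16.1, 15.8 and 16.6 FPKM, a log2 fold change of −1.34. *Dag1* encodes dystroglycan, a laminin receptor, and had a log2 fold change of −0.96. It was −1.79 for the haem oxygenase gene *Hmox1*, and −0.57 for the growth factor gene *Hdgf*. *Ptgfrn*, which encodes a partner of tetraspanins, fell from a mean of 149 FPKM to 37.3 FPKM.

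Other genes of the junction, of cadherin processing and of adiponectin signalling were read from 9 lists, of which 77 genes were tested. Among them 27 (35.1%) rose and 14 (18.2%) fell, against 20.2% and 20.2% of all genes tested. The 3 that also met the limit on size, *Pkp1*, *Notum* and *Mmd*, were higher, and *Pkp1* passed the filter on low values only through its level with *Xbp1* siRNA. Genes called higher made up 3.90% of the 77, *Pkp1* included, against 2.69% of all genes. Of the 77, 0 were called lower, against 2.50% of all genes. In the list of desmosomal cadherins, FAT, flamingo and protocadherins, 29 of 31 symbols were matched, 12 were at 0 in all libraries and 6 were tested. The desmogleins and desmocollins matched were all at 0. *Fat1*, a giant atypical cadherin, rose from 19.5 ± 1.16 FPKM in the controls to 27.4 ± 0.431 FPKM (mean ± SD of 3 libraries), 0.49 on the log2 scale (adjusted p = 3.92e-04). *Pcdh19*, a δ-protocadherin, had 0.769 and 1.41 FPKM on average, and its log2 fold change of 0.78 (adjusted p = 0.0299) had an adjusted p between 0.0501 and 0.0993 when any library other than *Xbp1* siRNA replicate 1 was left out. The median of the 6 was 0.32.

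Among the other catenins and plaque proteins, 16 of 20 were tested, of which 4 rose and 4 fell, with a median log2 fold change of −0.01. Of all genes tested, 20.2% moved in each direction. *Pkp1*, which encodes the desmosomal plakophilin of stratified epithelia, had 1, 2 and 0 reads in the controls and 21, 17 and 16 reads with *Xbp1* siRNA. Its mean was 0.0385 FPKM in the controls and 0.635 FPKM with *Xbp1* siRNA, so it passed the filter at 0.1 FPKM only through the group where it is high. The ratio per depth was 16.6 with an interval of 5.38 to 83.0 for counting error, and the log2 fold change was 2.43 (adjusted p = 0.00177), which became 0.65 with a pseudocount of 1 and 4.20 with one of 0.01. *Afdn*, which encodes the nectin-binding afadin, rose by 0.65 on the log2 scale (11.8 to 18.5 FPKM, adjusted p = 7.46e-05). *Vcl*, which encodes vinculin, the partner of α-catenin under tension, fell by 0.59 (24.3 to 16.1 FPKM, adjusted p = 7.81e-05).

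Of the proteases that process cadherins, 11 of 12 were tested, 6 rose and 2 fell, with a median log2 fold change of 0.25. Of all genes tested, 20.2% moved in each direction. *Ncstn*, which encodes a subunit of γ-secretase, rose from 86.5 ± 3.36 FPKM to 119 ± 1.05 FPKM (mean ± SD of 3 libraries), 0.46 on the log2 scale (adjusted p = 7.63e-05). For *Pcsk7*, which encodes a proprotein convertase, the log2 fold change was 0.47 (adjusted p = 2.19e-04). Among 4 matched repressors of cadherin genes, *Zeb1* fell by 0.39 on the log2 scale (18.8 to 14.3 FPKM, adjusted p = 0.00597) and *Snai2*, which encodes Slug, rose by 0.43 (4.98 to 6.71 FPKM, adjusted p = 0.0204), with a median of 0.18 over the 4. The adjusted p of *Snai2* was between 0.0553 and 0.0706 without control replicate 1, control replicate 3, *Xbp1* siRNA replicate 1 or *Xbp1* siRNA replicate 2.

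Of the 8 genes of the β-catenin destruction complex, 2 rose and 2 fell, with a median log2 fold change of 0.04, beside the 20.2% of all genes that moved in each direction. Both genes of the kinase that marks β-catenin for destruction fell, *Gsk3b* from 28.6 ± 0.910 FPKM to 18.6 ± 1.40 FPKM (mean ± SD of 3 libraries) with a log2 fold change of −0.62 (adjusted p = 2.80e-04), and *Gsk3a* with one of −0.45 (adjusted p = 5.13e-04). Of the TCF factors and β-catenin target genes, 8 of 13 matched were tested, 2 rose and 3 fell, with a median of 0.08. *Notum*, which encodes a secreted inhibitor of Wnt ligands, had 0.737, 0.792 and 0.804 FPKM against 2.91, 2.34 and 2.54 FPKM, a log2 fold change of 1.61 (adjusted p = 2.25e-04). With a pseudocount of 1 it became 1.01. *Ccnd1*, which encodes cyclin D1, fell by 0.50 on the log2 scale (126 to 88.8 FPKM, adjusted p = 9.16e-04). *Axin2*, the feedback target of the pathway, had 0.857 and 1.03 FPKM on average and did not pass the test (log2 fold change 0.25, adjusted p = 0.363).

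Of 18 genes of adiponectin signalling, which include the ligand, binding proteins and effectors of the receptors, 13 were tested, 7 rose and 2 fell, with a median log2 fold change of 0.32. Of all genes tested, 20.2% rose and 20.2% fell. *Asah1*, which encodes acid ceramidase, rose from 60.7 ± 3.25 FPKM to 88.8 ± 3.37 FPKM (mean ± SD of 3 libraries), 0.55 on the log2 scale (adjusted p = 1.39e-04). *Calr*, which encodes calreticulin, a chaperone also described as an adiponectin-binding protein, had a log2 fold change of 0.24 (607 to 717 FPKM, adjusted p = 5.51e-04), and of 0.57 after quantile normalization. In the PAQR family of the receptors, 8 of 9 further genes were tested, 2 rose and 6 did not pass the test, with a median of 0.12. *Mmd*, a member named for its rise during monocyte to macrophage differentiation, had 1.02, 0.994 and 1.48 FPKM against 2.40, 2.98 and 2.82 FPKM, a log2 fold change of 1.18 (adjusted p = 0.00244). With a pseudocount of 1 it became 0.79, under the limit of a call. For *Paqr3*, which encodes a Golgi member of the family, the log2 fold change was 0.52 (23.8 to 34.1 FPKM, adjusted p = 5.04e-04).

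**Figure D4:**
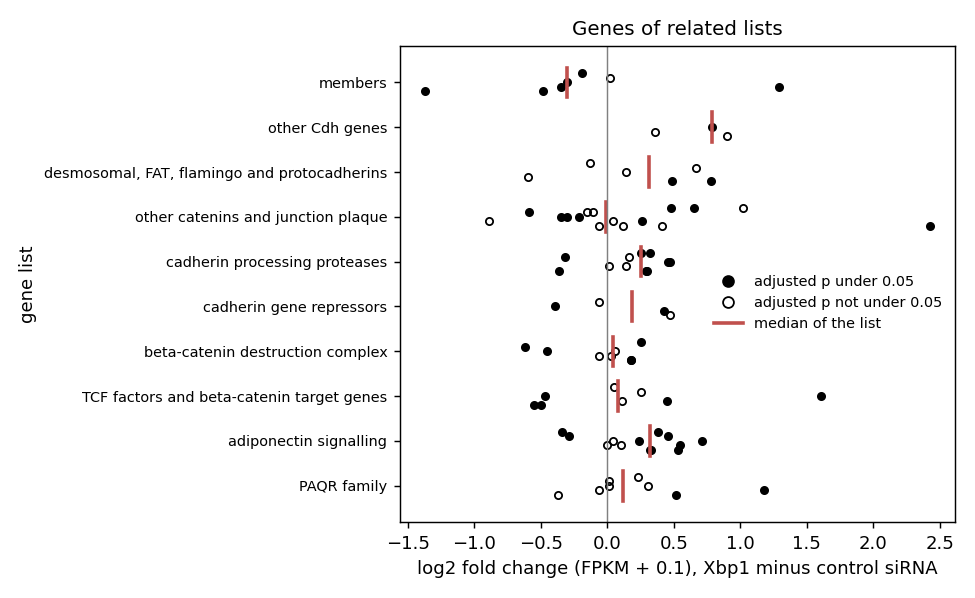
Log2 fold change of FPKM + 0.1 (Xbp1 siRNA minus control siRNA, n = 3 libraries each) of the members and of the genes tested in 9 related lists, with 1 point per gene, filled where the adjusted p from limma is under 0.05, and a red bar at the median of each list. The members have a median of −0.30, the medians of the other lists lie between −0.01 and 0.79, and the filled points beyond 1 outside the members are *Pkp1* (2.43), *Notum* (1.61) and *Mmd* (1.18).

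The labels name ovary as the source of the line. Of 10 ovarian somatic markers 7 were matched, and the receptor genes *Fshr* and *Lhcgr* were at 0 in all libraries. The summed FPKM of the matched markers was 23.7 to 27.5 in the controls and 12.9 to 15.5 with *Xbp1* siRNA, mainly through *Inhbb*, an inhibin subunit gene (log2 fold change −1.79, adjusted p = 1.47e-05). *Inhbb* was the only 1 of the 5 ovarian markers tested that fell. The other 4 did not pass the test, and the median log2 fold change of the 5 was 0.13. The sum of 9 mesenchymal markers was 715 to 758 FPKM in the controls and 548 to 580.5 FPKM with *Xbp1* siRNA, with *Col1a1*, *Col1a2* and *Thy1* at 0. Of the 6 mesenchymal markers tested, 4 fell and 1 rose, where 20.2% of all genes tested fell and 20.2% rose. Most of the sum was *Vim* (377 to 304 FPKM, adjusted p = 7.38e-04) and *Sparc* (316 to 209.7 FPKM, adjusted p = 3.71e-05), *Col3a1* was called lower (log2 fold change −1.49, adjusted p = 2.12e-04), and *Fn1*, which encodes fibronectin, rose from 13.1 to 23.3 FPKM (log2 fold change 0.83, adjusted p = 2.15e-05). The part of these markers in the results for the members was not tested. Endothelial markers summed to at most 1.00 FPKM, with *Cdh5*, *Tie1* and *Emcn* at 0. The sum of leukocyte markers was 5.18 to 6.31 FPKM against 6.99 to 8.80 FPKM, nearly all of it *Cd68*, with *Ptprc*, *Cd14*, *Adgre1* and *Cd3e* at 0. That of adipocyte markers was 53.3 to 58.4 FPKM against 50.8 to 54.6 FPKM, nearly all of it *Cidec*, with *Cfd* and *Fabp4* at 0.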

How the data were processed

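RNA-Seq of CHO-T cells was analysed in 2 groups of 3 libraries, grouped by the labels. The authors deposited 1 file per library with FPKM values by gene symbol. Per the labels, the submitters' processing notes name HISAT2 2.1.0 and Cuffdiff 2.2.1, while the genome build and annotation are not given in the sources used here, so no coordinates are printed. The study's methods used DESeq2 on counts, and counts were not used here.

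FPKM plus 0.1 were taken to the log2 scale and fitted with limma 3.58.1 under R 4.3.3 (lmFit, then eBayes with its trend option). Genes entered if their mean FPKM reached 0.1, with Benjamini-Hochberg adjustment over 14361 genes. The fit was tested on simulated data. A call required adjusted p below 0.05 together with a log2 fold change of 1 or more in size. Other steps used Python 3.11.15, numpy 2.4.6, pandas 2.3.3 and scipy 1.17.1.

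The files state no depth. Of 3065 weakly expressed genes, 72.6% had FPKM at whole-number multiples of 1 step per gene (tolerance 0.03 reads), and read numbers are given for such genes. Intervals and limits on read numbers cover counting error only.

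The members and lists were chosen with earlier results of these data known. Named genes are all members, *Xbp1*, the called genes of each list (with fewer than 2 called, the 2 with the smallest p), and the 5 genes most like *Cdh13*. *Cdh17*, *Axin2*, *Adipoq* and the marker genes were named after their values were seen. All 10 members were found by symbol in the RefSeq gene table (assembly CriGri-PICRH-1.0), used for names and neighbours only. The recognition site sequences were read from the study's supplement. A test of the ratio of *Cdh13* to *Cdh2* was planned and was not run, since *Cdh2* was 0 in control replicate 2. The settings varied were the pseudocount (0.01 or 1), the low-value filter (mean FPKM of 1, or no filter), the scaling (median-ratio or quantile), the eBayes trend, a replicate block, and the library left out.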

Additional observations from a re-analysis of the deposited data

How the results depend on the processing

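Over 14 alternative settings, 37 of 42 single genes recomputed kept their direction and their side of the limits of a call, and 1 of 583 values reversed, that of the uncalled marker *Cidec* (log2 fold change 0.01 with quantile normalization, −0.05 as reported). Most of the 42 were not called. An adjusted p that crossed 0.05 under the limit on size, as for *Ctnnd1*, *Snai2* and *Pcdh19*, did not count as a change of side. The settings were run for *Cdh17*, *Axin2* and 8 marker genes after their values were seen. *Cdh13* was called lower in each, with a log2 fold change between −1.38 and −1.31 (−1.38 to −1.36 with each library left out). The count of members called higher, 1 (*Cdh1*), became 0 when the filter was set to 1 FPKM, where *Cdh1* is not tested, with pseudocounts of 0.01 (log2 fold change 1.96, adjusted p = 0.0711) and 1 (0.34, 0.0394), with quantile normalization (1.16, 0.058) and with a replicate block (1.29, 0.0727). With 1 library left out it was 0 to 1. The count of members that rose was 0 under the same settings other than a pseudocount of 1, and 0 to 1 with 1 library left out. The count of members that fell was 4 to 5, with *Ctnnd1* at an adjusted p of 0.0535 without the trend and 0.0692 with quantile normalization. A pseudocount of 1 gave 114 genes called higher and 205 lower over all genes, 1 called higher among the other lists (*Notum*), and took *Mmd* to 0.79 and *Pkp1* to 0.65. The filter at 1 FPKM gave 242 genes called higher, and leaving out 1 library gave 329 to 380 higher and 346 to 369 lower.

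No pairing of same-numbered libraries was detected (correlations −0.029, −0.027 and −0.012), and 0 of 6 libraries correlated best with their own number in the other group. These correlations run over all genes tested, weakly expressed ones included, so a modest shared deviation could be missed. With the replicate block 363 genes were called higher and 353 lower, *Cdh13* stayed at −1.37 (adjusted p = 6.68e-05), and among the 42 genes recomputed the call of *Cdh1* alone was lost. The difference of the receptor log2 ratio lay between −0.15 and −0.10 with 1 library left out. With 14 and 50 reads, the depth limits what can be said of *Cdh1*, and more so of *Cdh2* and *Cdh3*.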
